A study of Mus musculus with 10 samples.

Results

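The transcripts of the nuclear genes that encode the subunits of the respiratory chain were measured in mouse livers with and without *Ndrg3*. The genes were taken by symbol, as Nduf genes with an a, b, c, s or v and a number (complex I), Sdha to Sdhd (complex II), Uqcr genes (complex III), Cox4 to Cox8 genes (complex IV) and Atp5a to Atp5l genes (complex V). Of the 24052 gene symbols listed, 80 were found, with 36 of complex I, 4 of complex II, 8 of complex III, 18 of complex IV and 14 of complex V.

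RNA sequencing was performed on liver tissue from 5 wild-type and 5 Ndrg3 LKO mice, with 1 library per liver. A legend on gene expression in these livers counts 4 Ndrg3 LKO mice, and which liver it leaves out was not given in the sources used here. Ndrg3 LKO mice are labelled C57BL/6, with a backcross to C57BL/6N in the methods. In them, exon 4 of *Ndrg3* is flanked by loxP sites and removed by Cre recombinase. Cre is under the control of the albumin promoter, which is active in hepatocytes, and *Ndrg3* was not measured by cell type. The controls were wild-type littermates, and whether they carried a floxed allele or Cre was not given in the sources used here. All mice were fed ad libitum and were male unless otherwise mentioned. For their age the methods give 8 to 10 weeks, whereas a legend on the same tissues gives 10 to 12 weeks. The livers are called wild-type livers 1 to 5 (WT1 to WT5) and Ndrg3 LKO livers 1 to 5 (LKO1 to LKO5), and equal numbers do not pair them. The libraries held 20872262 to 24747870 counts in the wild-type and 23474693 to 30450057 counts in the Ndrg3 LKO livers.

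The respiratory chain lies in the inner mitochondrial membrane, where complexes I and II pass electrons from NADH and succinate to ubiquinone, complex III passes them to cytochrome c, and complex IV passes them to oxygen. Complexes I, III and IV pump protons, and complex V, the ATP synthase, lets them flow back to make ATP. Most subunits are encoded in the nucleus and joined in the mitochondrion with a small set encoded by mitochondrial DNA, and hepatocytes, rich in mitochondria, draw on the chain for gluconeogenesis and the urea cycle.

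The level of a gene is given below as TMM-normalized counts per 1000000 counts (CPM), in which library sizes are rescaled so that most genes are level between livers. Differences were tested with edgeR's quasi-likelihood test over the 11208 genes that reached 1 CPM (by library size) in 5 or more livers, with Benjamini-Hochberg adjustment over all of them, and a gene is called changed at an adjusted p under 0.05. *Ndrg3* (chr2:156753081-156817792, mm9) was at 17.8, 17.7, 15.9, 19.1 and 21.9 CPM in wild-type livers 1 to 5 and at 7.07, 8.05, 9.16, 7.78 and 8.25 CPM in Ndrg3 LKO livers 1 to 5. The groups did not overlap, and *Ndrg3* fell with a log2 fold change -1.20 ± 0.13 (SE) (adjusted p = 3.9e-05; 2-sided exact permutation p = 0.00794, the smallest that 5 against 5 livers allow). All gene positions are in mm9. The count covers the whole gene, so the deleted exon was not measured by itself.

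Ndrg3 LKO liver 5 stood apart from the other Ndrg3 LKO livers. *Alb*, the most abundant of the hepatocyte markers, was at 26338, 21666, 20929, 22521 and 107850.0 CPM in Ndrg3 LKO livers 1 to 5, against 115763, 80485, 95804, 92353 and 87385 CPM in the wild-type livers. The 10 hepatocyte markers summed to 184159, 141025, 159812, 146163 and 146647 CPM in the wild-type and 41668, 36043, 34897, 35919 and 148763 CPM in the Ndrg3 LKO livers. Liver 5 was thus at the wild-type level for their sum, although its *Ndrg3* was low. Another hepatocyte gene, *Cyp2e1*, was at 1381 CPM there, below the wild-type livers (12229 to 14298 CPM). On the first principal component, which took 68.7% of the variance, it lay at 14.1, between the wild-type livers (-49.9 to -43.0) and Ndrg3 LKO livers 1 to 4 (51.1 to 56.6). The 20 most abundant genes took 26.2 to 28.0% of the counts in the wild-type livers, 16.3 to 17.3% in Ndrg3 LKO livers 1 to 4 and 26.6% in Ndrg3 LKO liver 5. The main counts are therefore also given without Ndrg3 LKO liver 5, and with library-size scaling, in which every library is divided by its total alone.

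Wild-type liver 5 stood apart in another set of genes. The muscle genes *Acta1*, *Mb* and *Ckm* were at 116, 48.9 and 38.8 CPM there, and at no more than 0.969, 0.0285 and 0.0570 CPM in any other liver. The 6 muscle markers summed to 247 CPM in this liver, and *Myh6*, a heart gene, was at 0. This bears on the muscle isoforms of complex IV described below.

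Transcripts of the subunits leaned to higher levels in Ndrg3 LKO livers, most clearly in complex IV. With TMM and all livers only *Sdha* was called lower, a call made in 6 of 18 alternative settings. Of the 80 genes, 75 passed the filter. The median log2 fold change of these 75 was 0.34, against 0.031 for all genes tested, and 62 lay above 0. 17 were called higher and 1 lower. The called-higher share was 22.7% of the subunit genes against a background of 25.6% of all genes tested, and the called-lower share was 1.33% against a background of 23.0%. The share called higher was thus near the background, while calls in the lower direction were fewer than in the background. The 17 include *Cox6b2*, which passed the filter only through the Ndrg3 LKO livers, and 16 were called higher with it left out. In bulk liver, fewer cells of a type and less RNA per cell cannot be told apart.

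The size of these shifts and the number of calls differed between scalings. With library-size scaling the median was 0.84 for the subunit genes and 0.56 for all genes, so that the distance between them was 0.28, against 0.31 with TMM. That distance with TMM was 0.18 without wild-type liver 4, 0.20 without Ndrg3 LKO liver 5 and 0.20 with no filter on low counts. With library-size scaling 66 of 75 were called higher and 0 lower, with all 75 above 0, against backgrounds of 51.9% higher and 9.01% lower; of all changed genes 85.2% were higher, against 52.6% with TMM. Quantile normalization with limma, which held the median of all genes at 0.038, gave the subunit genes a median of 0.54, a distance of 0.50, and called 53 higher and 0 lower, against backgrounds of 26.3% and 22.8%. Without Ndrg3 LKO liver 5 the TMM median was 0.23, and 17 of 74 genes were higher and 2 lower, against backgrounds of 28.0% and 26.5%. Of the 18 calls with all livers, 16 remained without it. *Cox6b2* no longer passed the filter and *Ndufb4* no longer passed the test, while *Cox6a2*, *Ndufv3* and *Sdhc* were called in addition. The direction of the median was the same on each of these scales, and the number of calls was not.

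**Figure D1:**
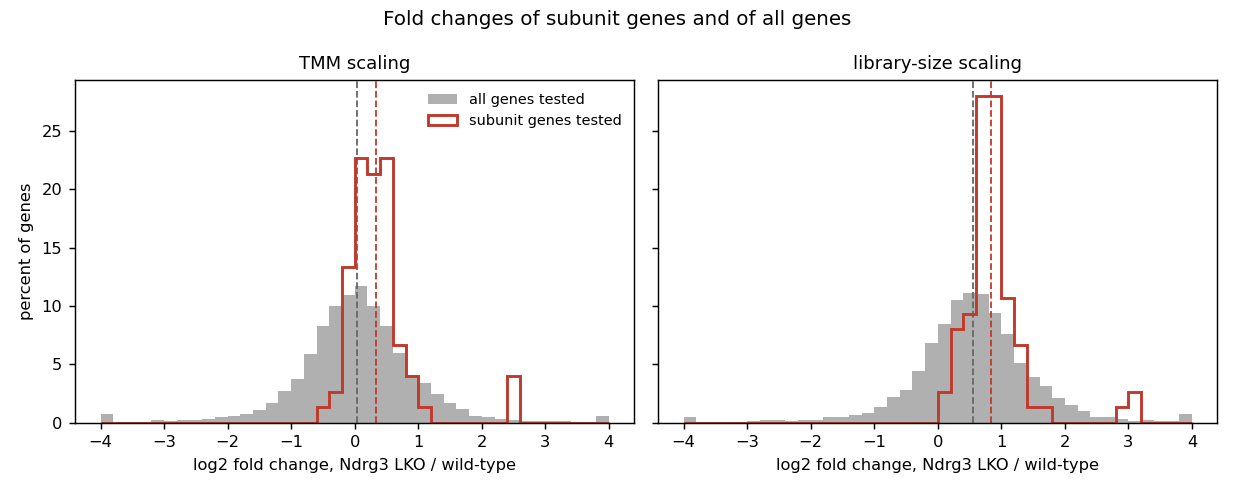
Percent of genes (y axis) by log2 fold change of Ndrg3 LKO over wild-type (x axis, bins of 0.2), for all genes tested (grey) and the 75 subunit genes tested (red outline), with TMM scaling on the left and library-size scaling on the right. Dashed lines mark the medians, 0.34 and 0.031 on the left and 0.84 and 0.56 on the right, and values beyond 4 are drawn in the end bins.

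The subunit genes moved together from liver to liver within each group. Wild-type liver 4 had the lowest wild-type value for 67 of the 75 genes, and Ndrg3 LKO liver 2 the lowest Ndrg3 LKO value for 59. Ndrg3 LKO liver 5 had the highest Ndrg3 LKO value for 57. Among all genes tested these livers were in those places for 25.5%, 27.9% and 31.8% of genes. 51, 13, 17, 52 and 68 of the 75 genes were above every wild-type liver in Ndrg3 LKO livers 1 to 5, where 37.5, 35.3, 35.4, 36.9 and 33.2% of all genes tested were. Ndrg3 LKO livers 1, 4 and 5 thus stood over that background for the subunit genes and livers 2 and 3 under it. The subunit genes share these livers and are not separate measurements of the group difference.

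**Figure D2:**
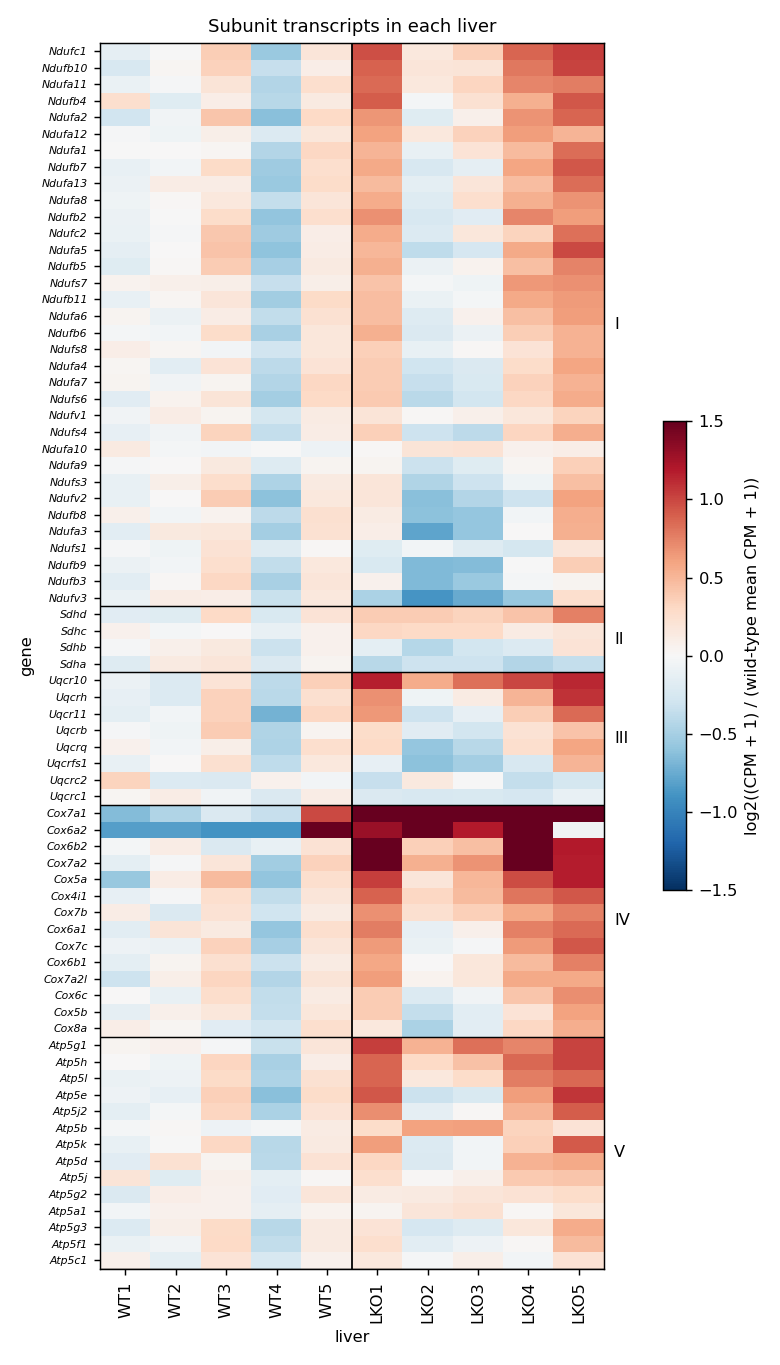
Level of 74 of the 75 subunit genes tested (rows, ordered by log2 fold change within complexes I to V) in each liver (columns), as log2 of CPM + 1 over the wild-type mean + 1, with the colour scale ending at 1.5 in both directions. Livers WT4 and LKO2 are pale or blue over most rows, LKO1, LKO4 and LKO5 red over most rows, and *Cox7a1* and *Cox6a2* are red in WT5.

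Summed over all 80 genes, the subunits came to 19214, 20130.4, 22689, 16014 and 22446 CPM in the wild-type livers and to 26711, 20013, 21457, 25727 and 30027 CPM in the Ndrg3 LKO livers. The groups overlapped, with Ndrg3 LKO livers 2 and 3 inside the wild-type range, and the means were 20098 ± 2725 and 24787 ± 4059.7 CPM (SD, n = 5 each). As a plain share of all counts, they took 1.55, 1.67, 1.88, 1.47 and 1.81% in the wild-type and 3.19, 2.71, 2.83, 3.25 and 2.71% in the Ndrg3 LKO livers. On that scale the groups did not overlap, and Ndrg3 LKO liver 5, the highest by TMM, was level with liver 2 at the bottom of its group. By complex, the ratio of the Ndrg3 LKO mean to the wild-type mean of the TMM sums was 1.17 for complex I, 1.0 for complex II, 1.15 for complex III, 1.48 for complex IV and 1.25 for complex V. Complex IV thus had the highest ratio and complex II a ratio near 1, and without Ndrg3 LKO liver 5 these were 1.40 and 0.971. Complex V was the only complex whose TMM sum was above every wild-type liver in all 5 Ndrg3 LKO livers. The sums carry no test.

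**Figure D3:**
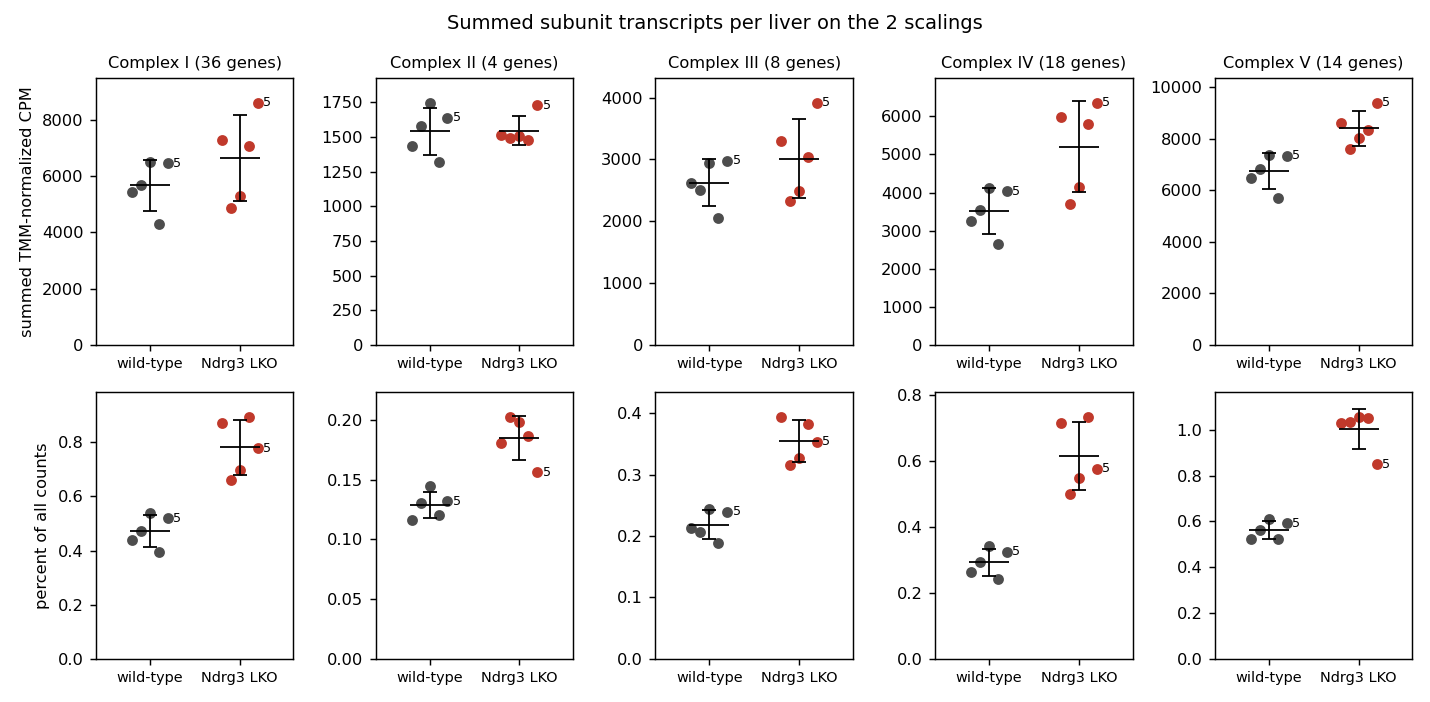
Summed level of the subunit genes of each complex in every liver, as TMM-normalized CPM (upper row, y axis) and as percent of all counts of the library (lower row, y axis), for wild-type (grey) and Ndrg3 LKO (red) livers, with the mean and SD in black (n = 5). Liver 5 of each group is marked, and Ndrg3 LKO liver 5 is the highest of its group in the upper row for each complex but not in the lower row.

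Complex I, NADH dehydrogenase, takes electrons from NADH. Of its 36 genes, 35 were tested, with a median log2 fold change of 0.26. 5 were called higher (14.3%, against 25.6% of all genes), all of them accessory subunits, and none lower (against 23.0%), and the groups overlapped for each of the 35. *Ndufc1*, a small membrane subunit (chr3:51208599-51212910), had the largest called rise. It was at 48.3, 52.8, 68.9, 35.8 and 60.3 CPM in the wild-type and 105, 59.4, 68.4, 98.5 and 110.2 CPM in the Ndrg3 LKO livers (log2 fold change 0.73 ± 0.21 (SE), adjusted p = 0.0139). Ndrg3 LKO livers 2 and 3 overlapped with wild-type livers 3 and 5.

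*Ndufa12*, an accessory subunit of the peripheral arm, rose from 62.4 ± 6.27 to 86.0 ± 11.4 CPM (SD, n = 5; log2 fold change 0.46 ± 0.13 (SE), adjusted p = 0.00995), with a single overlapping pair, Ndrg3 LKO liver 2 just under wild-type liver 5. *Ndufb10*, *Ndufa11* and *Ndufb4*, subunits of the membrane arm, rose with log2 fold changes of 0.66, 0.59 and 0.58 (adjusted p = 0.0198, 0.0155 and 0.0349). *Ndufb4* was no longer called without Ndrg3 LKO liver 5 (adjusted p = 0.0548; over its alternatives 2.4e-04 to 0.0744).

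None of the 7 core subunits, which carry the flavin and the iron-sulfur clusters and are conserved from bacteria, was called. Their log2 fold changes lay between -0.091 and 0.37, with a median of 0.16, against 0.36 over the 28 accessory subunits tested. With library-size scaling, 6 of the 7 and 24 of the 28 were called higher, where 51.9% of all genes were. *Ndufv3*, an accessory subunit near the flavin site, had the lowest value of the complex, at 85.1, 98.8, 97.8, 72.4 and 102 CPM in the wild-type and 65.5, 48.9, 53.7, 61.1 and 109 CPM in the Ndrg3 LKO livers (log2 fold change -0.43 ± 0.21 (SE), adjusted p = 0.0999). Ndrg3 LKO livers 1 to 4 were below every wild-type liver and liver 5 above them all. Without liver 5 it was called lower (log2 fold change -0.65, adjusted p = 0.00223; over its alternatives 0.00223 to 0.822), and with library-size scaling its value was 0.040.

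Per length of coding transcript, *Ndufa4* had the highest level of the genes taken with complex I, at 1044 CPM per kb over all livers. Its product, first assigned to complex I, is now counted with complex IV. It was at 480.1 ± 81.9 CPM in the wild-type and 547 ± 142 CPM in the Ndrg3 LKO livers and was not called (log2 fold change 0.19 ± 0.20 (SE), adjusted p = 0.459). *Ndufs5* was listed at 0 counts in 9 livers and at 1 count in Ndrg3 LKO liver 1. It has a near-identical copy elsewhere in the genome, and what the listed value owes to the counting was not tested.

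Complex II, succinate dehydrogenase, belongs to both the chain and the tricarboxylic acid cycle. Of its 4 subunits, 1 was called lower and 1 higher (25% each, against backgrounds of 23.0% and 25.6% of all genes), and with library-size scaling all 4 lay above 0. *Sdha*, the flavoprotein that oxidizes succinate (chr13:74459702-74487728), was at 552, 693, 717, 541 and 646 CPM in wild-type livers 1 to 5 and at 471, 507, 506, 463 and 490.0 CPM in Ndrg3 LKO livers 1 to 5. Every Ndrg3 LKO liver was below every wild-type liver, and *Sdha* fell (log2 fold change -0.37 ± 0.14 (SE), adjusted p = 0.0399). It is the only subunit gene whose groups did not overlap in this direction, against a background of 15.9% of all genes. The call was made in 6 of 18 alternatives (adjusted p 0.00623 to 0.878), and with library-size scaling the log2 fold change was 0.16 and not called, so the direction rests on the scale. *Sdhb*, the iron-sulfur subunit, was at 331 ± 39.6 and 297 ± 50.7 CPM (log2 fold change -0.15 ± 0.15 (SE), adjusted p = 0.423), and with library-size scaling it was called higher at 0.35 (adjusted p = 0.0257; over its alternatives 0.0257 to 0.7).

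The membrane anchors *Sdhc* and *Sdhd*, which hold the enzyme in the inner membrane and bind ubiquinone, were higher in each Ndrg3 LKO liver than in any wild-type liver. *Sdhd* (chr9:50404443-50411954), with the highest level per length of the complex, was at 316, 313, 436, 302 and 407 CPM in the wild-type and 463, 462, 446, 477 and 601 CPM in the Ndrg3 LKO livers, and rose (log2 fold change 0.47 ± 0.16 (SE), adjusted p = 0.0286). *Sdhc* was at 239.7, 224, 229, 211 and 238 CPM in the wild-type and 283, 281, 282, 249 and 258 CPM in the Ndrg3 LKO livers, with groups apart but without passing the test (log2 fold change 0.25 ± 0.11 (SE), adjusted p = 0.0914). Without Ndrg3 LKO liver 5, both were called higher, at 0.41 and 0.29 (adjusted p = 0.0316 and 0.0449; over their alternatives 1.5e-04 to 0.0735 and 7.8e-04 to 0.228).

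Complex III, the cytochrome bc1 complex, had 8 genes tested, a median log2 fold change of 0.11 and a single call, higher (12.5%, against 25.6% of all genes). *Uqcr10*, a small subunit of the membrane part (chr11:4601976-4604345), was at 191, 175, 233, 154 and 259 CPM in the wild-type and at 457, 299, 359.7, 408 and 443 CPM in the Ndrg3 LKO livers. There was no overlap of the groups, and *Uqcr10* rose 1.94-fold (log2 fold change 0.96 ± 0.18 (SE), adjusted p = 0.00126), with the call made in each of its 18 alternatives. The small subunits *Uqcr11*, *Uqcrb*, *Uqcrh* and *Uqcrq* lay above 0, between 0.096 and 0.53, without passing the test. *Uqcrh*, the hinge protein, had the highest level of the complex per length and was at 398 ± 87.7 and 573 ± 184 CPM (adjusted p = 0.08).

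The core proteins *Uqcrc1* and *Uqcrc2* and the Rieske iron-sulfur protein *Uqcrfs1*, which passes electrons on towards cytochrome c, had log2 fold changes of -0.21, -0.15 and -0.14, none of them called, and of 0.32, 0.39 and 0.34 with library-size scaling, again with none called. With *Sdha*, *Ndufa3*, *Ndufb3*, *Ndufb9*, *Ndufv2* and *Ndufv3*, they make up the 9 subunit genes tested that were not called higher on that scale.

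**Figure D4:**
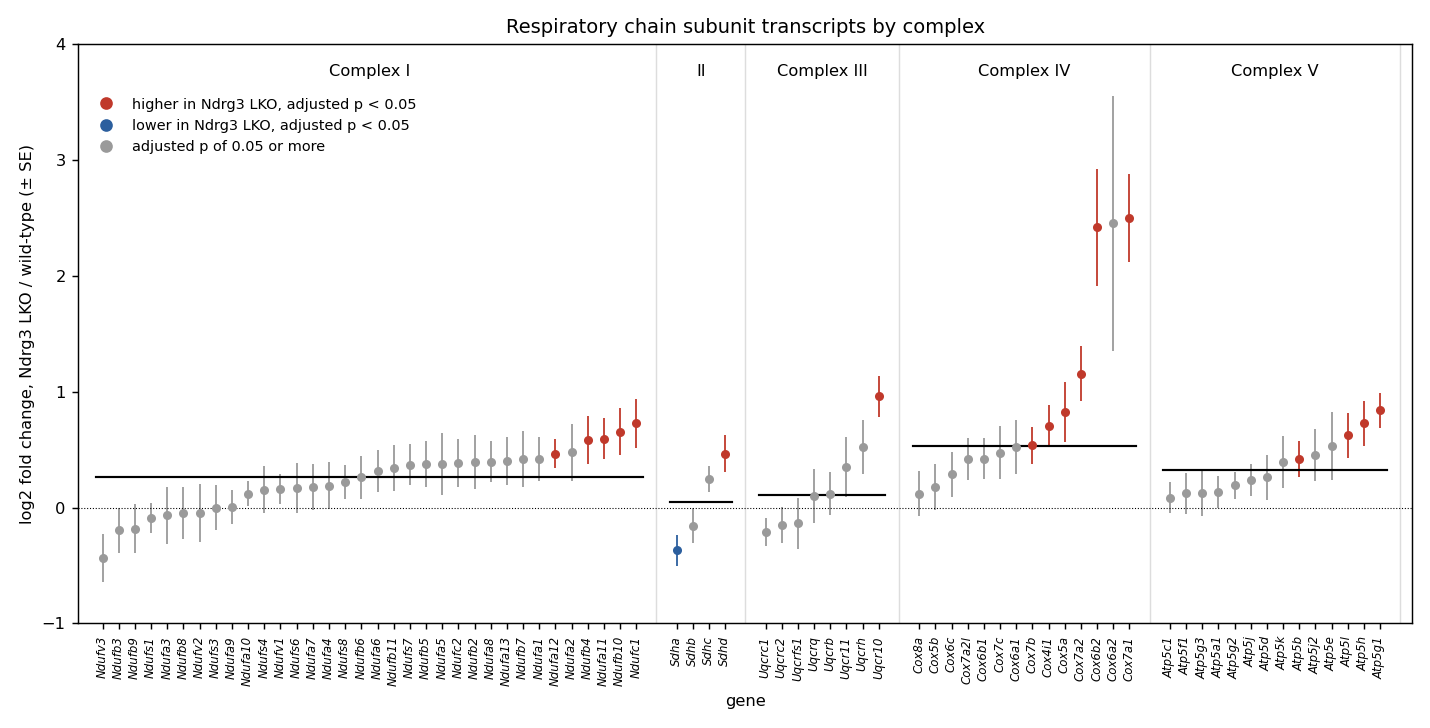
Log2 fold change of Ndrg3 LKO over wild-type with its SE (y axis) for 74 of the 75 subunit genes tested (x axis), by complex, with the median over all tested genes of each complex as a black line. Red marks the 17 genes called higher, blue the gene called lower (*Sdha*), and the 3 highest values belong to *Cox6b2*, *Cox6a2* and *Cox7a1* of complex IV.

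Complex IV, cytochrome c oxidase, was the complex with the highest median log2 fold change, 0.53 over the 14 genes tested, all of them above 0. 6 were called higher (42.9%, against 25.6% of all genes) and none lower (against 23.0%). *Cox6b2*, among the 6, passed the filter only through the Ndrg3 LKO livers, so this share and the median rest partly on the filter. Of the 11 widely expressed genes of the complex, 4 were called higher (36.4%), and the median log2 fold change of these 11 was 0.47. *Cox4i1*, the ubiquitous form of the subunit that binds adenine nucleotides (chr8:123192190-123198109), had the highest level per length of all subunit genes at 1372 CPM per kb. It was at 649.6, 699.9, 845, 548 and 805 CPM in the wild-type and 1314, 877, 983, 1242 and 1355 CPM in the Ndrg3 LKO livers. The groups were apart, and *Cox4i1* rose (log2 fold change 0.70 ± 0.18 (SE), adjusted p = 0.00794), as it did without Ndrg3 LKO liver 5 (0.66, adjusted p = 0.00738). Its paralog *Cox4i2*, expressed mainly in lung, was not tested, with at most 0.707 CPM in any liver.

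*Cox7a2*, the widely expressed form of subunit VIIa (chr9:79603048-79607660), had the largest change of the abundant subunits. It was at 255, 278, 320.4, 196 and 358 CPM in wild-type livers 1 to 5 and at 824, 409, 449, 811 and 638 CPM in Ndrg3 LKO livers 1 to 5. The groups were apart, with Ndrg3 LKO livers 1 and 4 the highest, and *Cox7a2* rose 2.23-fold (log2 fold change 1.15 ± 0.24 (SE), adjusted p = 0.00219). *Cox5a*, which faces the matrix, rose from 257 ± 83.5 to 454 ± 122 CPM (log2 fold change 0.82 ± 0.26 (SE), adjusted p = 0.0199), with overlapping groups; an exon of *Gm17596* overlaps it on the other strand, so its counts are uncertain. *Cox7b*, a small membrane subunit, rose from 266 ± 41.1 to 387 ± 57.8 CPM with groups apart (log2 fold change 0.54 ± 0.16 (SE), adjusted p = 0.0149), and its testis form *Cox7b2* was at 0 counts in all 10 livers.

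Of the 7 complex IV paralogs that are best known from single tissues such as heart and skeletal muscle, lung or testis, 3 were tested. *Cox7a1* and *Cox6b2* were called higher, both at low levels, against a background of 25.6% of all genes. *Cox6b2* passed the filter only through the Ndrg3 LKO livers, so its call is not counted as a result on these paralogs. *Cox7a1*, the heart and muscle form of subunit VIIa (chr7:30969190-30971047), was at 1.23, 1.56, 2.0, 1.75 and 5.95 CPM in the wild-type and at 14.5, 12.1, 12.3, 12.6 and 18.9 CPM in the Ndrg3 LKO livers. The groups were apart, and it rose 5.66-fold (log2 fold change 2.5 ± 0.38 (SE), adjusted p = 3.5e-04). Wild-type liver 5, the liver with the muscle transcripts, was the highest of its group, and without it the log2 fold change was 3.10. Ndrg3 LKO livers had *Cox7a1* at 12.1 CPM or more with *Mb* at or near 0. Which cells the *Cox7a1* transcripts came from was not tested. Per length, *Cox7a1* made up 0.994 to 3.33% of the *Cox7a1* and *Cox7a2* total in the wild-type and 3.11 to 5.78% in the Ndrg3 LKO livers. *Cox7a2l*, a relative of this family that takes part in supercomplexes, was at 128 ± 28.5 and 171 ± 30.5 CPM and was not called (log2 fold change 0.42 ± 0.18 (SE), adjusted p = 0.0757).

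*Cox6a2*, the heart and muscle form of subunit VIa, was at 0.0561, 0.0488, 0, 0 and 4.23 CPM in the wild-type and 3.56, 6.11, 3.24, 8.92 and 0.801 CPM in the Ndrg3 LKO livers. An exon of *Itgad* overlaps *Cox6a2* on the other strand, so its counts are uncertain. Ndrg3 LKO livers 1 to 4 and wild-type liver 5 were high, the other wild-type livers were at 0 or 1 count, and Ndrg3 LKO liver 5 lay between. *Cox6a2* passed the filter only through those high livers, and it left the test when any of them was left out. Its fold change and test thus rest partly on the filter and on the liver with the muscle transcripts. The difference did not pass the test (log2 fold change 2.45 ± 1.1 (SE), adjusted p = 0.0835), and it did without Ndrg3 LKO liver 5 (adjusted p = 0.0403; over its alternatives 0.0152 to 0.207). The widely expressed *Cox6a1* was at 383 ± 82.6 and 549.8 ± 159 CPM and was not called (log2 fold change 0.52 ± 0.23 (SE), adjusted p = 0.0813).

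*Cox6b2*, the testis form of subunit VIb, was at 0.393, 0.537, 0.223, 0.322 and 0.655 CPM in the wild-type and 3.82, 0.824, 0.952, 3.59 and 2.26 CPM in the Ndrg3 LKO livers. It was called higher, but no wild-type liver reached 1 CPM by library size. It passed the filter only through the Ndrg3 LKO livers, so its fold change and test are not read as a result. The groups were apart at a level near the filter, with 7, 11, 4, 7 and 11 counts in the wild-type livers. *Cox6b1*, its widely expressed paralog, was at 371 ± 56.5 and 496 ± 103 CPM and was not called (log2 fold change 0.42 ± 0.18 (SE), adjusted p = 0.0679). *Cox8a*, the widely expressed subunit VIII, was at 256 ± 37.1 and 278 ± 74.1 CPM (adjusted p = 0.633). Of its paralogs, the muscle form *Cox8b* was at 3.51 CPM in wild-type liver 5 and at most 0.630 CPM elsewhere, and *Cox8c* at 0 counts in every liver. Among the subunit genes, *Cox7a1* and *Cox7a2* passed both an adjusted p under 0.05 and a log2 fold change above 1. *Cox6b2* also passed, which makes 3, but it entered the test only through the Ndrg3 LKO livers. The backgrounds by the same rule were 11.4% of all genes higher and 9.11% lower.

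**Figure D5:**
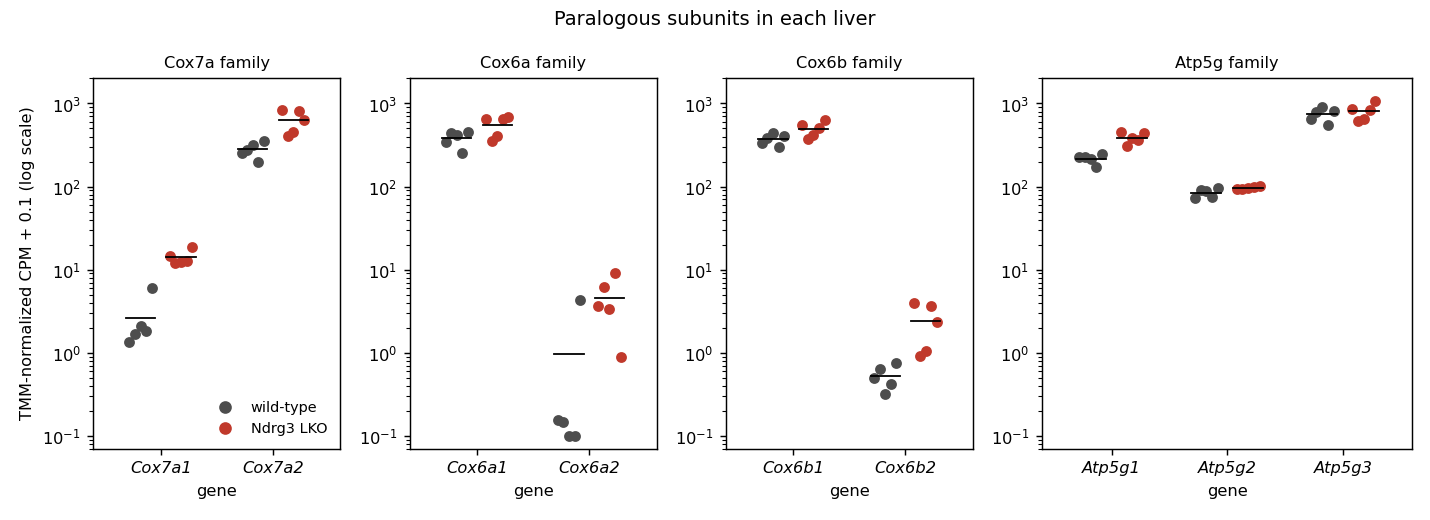
TMM-normalized CPM + 0.1 on a log scale (y axis) of paralogous subunit genes (x axis) in wild-type (grey) and Ndrg3 LKO (red) livers, each point a liver in the order 1 to 5 and each bar a mean. *Cox7a1*, *Cox7a2*, *Cox6b2* and *Atp5g1* show groups apart, and wild-type liver 5 is the highest wild-type point for *Cox7a1* and *Cox6a2*.

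Complex V, the ATP synthase, had 14 genes tested, all above 0, with a median log2 fold change of 0.33. 4 were called higher (28.6%, near the 25.6% of all genes) and none lower (against 23.0%). *Atp5g1*, *Atp5g2* and *Atp5g3* encode the same mature c subunit, the rotating ring of the membrane part. *Atp5g1* (chr11:95930166-95936984) was at 224, 227, 215, 173 and 246 CPM in the wild-type and 448, 311, 385, 360.4 and 438 CPM in the Ndrg3 LKO livers. All Ndrg3 LKO livers were above all wild-type livers, and *Atp5g1* rose 1.79-fold (log2 fold change 0.84 ± 0.15 (SE), adjusted p = 9.7e-04). *Atp5g3*, with the highest level per length of the complex, was at 739 ± 139.7 and 807 ± 187 CPM, and *Atp5g2* was at 84.5 ± 10.3 and 96.4 ± 4.11 CPM, neither of them called (adjusted p = 0.615 and 0.181). As a share of the 3 genes per length, which does not depend on the scaling, *Atp5g1* made up 18.2 to 24.4% in the wild-type livers and 27.5 to 34.7% in the Ndrg3 LKO livers.

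*Atp5b*, the catalytic beta subunit of F1 (chr10:127520329-127527447), was the most abundant of the subunit genes in CPM, at 1527, 1572, 1475, 1528 and 1692 in the wild-type and 1882, 2375, 2392, 1970.1 and 1797 in the Ndrg3 LKO livers. No livers of the groups overlapped, and *Atp5b* rose (log2 fold change 0.42 ± 0.15 (SE), adjusted p = 0.0379). Unlike most subunit genes, it was highest in Ndrg3 LKO livers 2 and 3 and lowest of its group in liver 5. It was called in 9 of 18 alternatives (adjusted p 8.8e-04 to 0.13). The alpha subunit *Atp5a1*, its partner in the catalytic head, was at 1439 ± 82.9 and 1576 ± 101 CPM and was not called (log2 fold change 0.13 ± 0.14 (SE), adjusted p = 0.446). *Atp5h*, of the peripheral stalk, and *Atp5l*, of the membrane part, rose with log2 fold changes of 0.73 and 0.62 (adjusted p = 0.00826 and 0.0192); they have 4 and 10 near-identical copies in the genome, so their counts are uncertain.

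Groups that did not overlap were found for 10 of the 75 subunit genes in the higher direction, 13.3% against a background of 15.6% of all genes. They are *Sdhc*, *Sdhd*, *Uqcr10*, *Cox4i1*, *Cox6b2*, *Cox7a1*, *Cox7a2*, *Cox7b*, *Atp5b* and *Atp5g1*, so none belongs to complex I. Of these, *Cox6b2* passed the filter only through the Ndrg3 LKO livers.

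The other genes of the chain, which the symbols did not take in, had calls in both directions, which stand against the same backgrounds of 25.6% of all genes higher and 23.0% lower here and for the further lists. Of 15 further complex I subunits and assembly factors tested, 4 were higher and 1 lower. The assembly factors *Timmdc1* and *Ndufaf5* rose (0.80 and 0.68 on the log2 scale, adjusted p = 5.0e-04 and 0.00957), and *Foxred1* fell (-0.45, adjusted p = 0.00851), or stood at 0.053 with library-size scaling. Of 3 assembly factors of complex II tested, 2 rose, *Sdhaf1* (0.84, adjusted p = 0.00194) and *Acn9* (0.49, adjusted p = 0.0136). Of 6 further complex III genes, only *Lyrm7*, a chaperone of the Rieske protein, was called (0.69, adjusted p = 0.0104).

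Among 17 complex IV assembly factors and cytochrome c genes tested, 8 were higher and 1 lower. *Cox10* and *Cox15*, which make heme a, rose (0.96 and 1.17, adjusted p = 1.9e-04 and 0.0119), and *Surf1* fell (-0.42, adjusted p = 0.031), or stood at 0.094 with library-size scaling. *Surf1* lost its call without wild-type liver 2, 3 or 5 or Ndrg3 LKO liver 1, 2 or 3 (adjusted p = 0.0598 to 0.0887). *Cox15* was lowest of its group in Ndrg3 LKO liver 5, at 18.9 CPM against 37.7 to 83.0 CPM in the others. Of 8 further complex V genes, 4 were higher and none lower. *Atpif1*, the inhibitor of the ATP synthase, rose from 16.5 ± 2.76 to 43.4 ± 17.4 CPM (1.40, adjusted p = 5.6e-04), and 2010107E04Rik rose as well (0.84, adjusted p = 0.021). The 13 mitochondrially encoded subunits were not analysed here.

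Of 14 regulators of mitochondrial biogenesis, 5 were higher (35.7%) and 4 lower (28.6%). *Ppargc1a*, the coactivator PGC-1alpha, rose from 11.9 ± 1.94 to 80.8 ± 43.0 CPM (2.76, adjusted p = 7.0e-05), and *Esrra*, the nuclear receptor ERRalpha, from 48.2 ± 7.46 to 109 ± 21.3 CPM (1.18, adjusted p = 1.8e-04). Both had groups apart. *Tfb1m*, a mitochondrial rRNA methyltransferase, and *Polg*, the mitochondrial DNA polymerase, fell (-1.12 and -0.72, adjusted p = 7.7e-04 and 0.00441). With library-size scaling *Polg* stood at -0.18 (adjusted p = 0.494), and *Gabpa* and *Tfb2m* also lost their lower calls, so that only *Tfb1m* kept its own.

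Among 15 genes of the tricarboxylic acid cycle, 5 were higher and 2 lower. *Mdh2*, malate dehydrogenase, rose from 387 ± 33.6 to 1379.5 ± 425 CPM (1.83, adjusted p = 9.8e-05) and *Idh3a*, of isocitrate dehydrogenase, rose by 1.37 (adjusted p = 2.1e-04), while *Pcx*, pyruvate carboxylase, and *Suclg1*, of succinyl-CoA ligase, had log2 fold changes of -1.25 and -0.51 (adjusted p = 1.9e-04 and 0.0177). With library-size scaling *Suclg1* stood at -0.0077 (adjusted p = 0.961), and it lost its call without Ndrg3 LKO liver 3 (adjusted p = 0.0519). Of the 8 other enzymes that feed electrons to ubiquinone, 2 rose, *Gpd2* (1.09) and *Dhodh* (0.93), and 2 fell, *Prodh* (-1.78) and *Sqrdl* (-1.02). *Sqrdl* was at 49.9 to 68.3 CPM in Ndrg3 LKO livers 1 to 4 and at 202 CPM in liver 5, above every wild-type liver (168 to 189 CPM). Its log2 fold change was -1.57 without liver 5, and its call was lost without any of the other 4 (adjusted p = 0.059 to 0.0679). *Gpd2* was at 15.7 CPM in Ndrg3 LKO liver 5, under the lowest of the wild-type livers (19.1 to 29.6 CPM), and at 40.5 to 75.9 CPM in the others, with a log2 fold change of 1.34 without it. Of 10 genes of ubiquinone synthesis, 5 were higher, with *Pdss1* (0.94) and *Coq6* (0.73) the largest, and *Adck3* was lower (-1.67). Of 20 genes of mitochondrial import and membranes, 9 were higher and 2 lower; the receptor *Tomm20* (0.92) and the translocase *Timm50* (1.02) rose, the carrier *Slc25a13* fell (-0.90), and the mitofusin *Mfn1* fell (-0.36) with TMM but stood at 0.15 with library-size scaling. *Mfn1* lost its call without wild-type liver 3, 4 or 5 or Ndrg3 LKO liver 1, 3 or 4 (adjusted p = 0.0617 to 0.0997).

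Markers of the cells that a liver sample holds moved between the groups as well, and their part in the subunit results was not tested. Of 9 hepatocyte markers tested, 7 were lower and none higher, and *Cyp2e1* (-3.56) and *Apoa1* (-2.34, or -3.51 without Ndrg3 LKO liver 5) fell most. All 6 Kupffer cell markers were higher, with sums of 68.0, 178, 83.7, 91.4 and 114 CPM in the wild-type and 506, 155, 494, 262 and 209.7 CPM in the Ndrg3 LKO livers, *Clec4f* being the most abundant and *Marco* (4.30) and *Vsig4* (1.32) the largest changes. Ndrg3 LKO liver 2 was inside the wild-type range. Both other macrophage markers tested were higher (*Cd68* 1.63, *Lyz2* 1.47), as were 5 of 6 endothelial markers (*Lyve1* 1.99, *Cdh5* 1.48) and 3 of 6 stellate or fibroblast markers (*Col1a1* 1.59, *Lrat* 1.31). *Sox9* (-0.86) was the only one of 4 cholangiocyte markers called, and it was lower with TMM but stood at -0.29 (adjusted p = 0.374) with library-size scaling.

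The cycling cell markers summed to 0.786, 1.76, 2.12, 1.75 and 1.13 CPM in the wild-type and 30.5, 7.46, 5.46, 20.6 and 33.3 CPM in the Ndrg3 LKO livers. *Mki67* was higher (3.33). *Top2a* and *Ccnb1* passed the filter only through the Ndrg3 LKO livers, as no wild-type liver reached 1 CPM by library size, and their changes were not counted. Ndrg3 LKO livers 1, 4 and 5 were the highest here, as they were for the summed subunit genes with TMM, whereas by share of counts liver 5 was level with liver 2 as the lowest of the Ndrg3 LKO livers for the subunit genes. None of the T cell (4), B cell (3) and muscle (6) markers passed the filter; their sums were at most 3.10 CPM for T cells, 4.62 CPM for B cells and, outside wild-type liver 5, 1.54 CPM for muscle. *Elovl3* (-5.08), also a hepatocyte gene, was the only brown fat marker tested, and *Ucp1*, which defines that tissue, was at no more than 1.61 CPM. *Alas2* (-3.19) was the only red cell marker tested, and the globin genes *Hba-a1* and *Hbb-b1* were listed at 0 counts.

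Subunit transcripts are short, and shorter genes tended to have higher fold changes. Across the 74 subunit genes with a length, Spearman's rho between coding transcript length and log2 fold change was -0.31, and across the 10292 genes tested with a length it was -0.089; genes share libraries and are not independent replicates. The median log2 fold change was 0.38 for the 51 subunit genes with a transcript under 1000 bases and 0.13 for the 23 longer ones, against 0.21 and 0.0027 for all genes of those lengths. Of the 1457 genes under 1000 bases, 32.3% were called higher and 15.8% lower, so the short genes as a whole also leaned upward.

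Respiratory chain genes are known to share promoter elements bound by NRF-1, GABP (an ETS factor), ERRalpha and YY1, and 4 short motifs were searched on both strands of RefSeq promoter windows of 300 bases (250 before to 50 after the start; GRCm38.p6). 66 of the 80 genes had a window. GCGCATGCG (NRF-1) was found for 8 of the 66 (12.1%), AAGATGGC (YY1) for 10 (15.2%), AAGGTCA (ERR half-site) for 8 (12.1%) and CCGGAAGT (ETS) for 5 (7.58%). Among the 8563 genes tested that had a window, the shares were 4.36%, 5.49%, 4.25% and 9.54%, and among all 27025 genes with a window 1.95%, 3.19%, 5.38% and 4.31%. Of the 16 called-higher genes with a window, 2 held the NRF-1 motif, 1 the YY1 motif, 3 the ERR half-site and 1 the ETS motif, against 6, 9, 4 and 4 of the 46 genes tested and not called. A motif is a run of letters and not a measured site, and GCGCATGCG overlaps its own reverse complement.

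The 250 bases before the start of the 4 called-higher genes that hold a motif in that stretch (RefSeq, GRCm38.p6) are shown 5′ to 3′ on the gene's strand, with the motifs in capitals, followed by those of the paralogs *Cox7a1* and *Cox7a2*, which both rose and hold none of the 4 motifs there. *Ndufa11* lies at chr17:56717512-56717761 (plus strand), with overlapping NRF-1 motifs on both strands from position -60 relative to the start. *Ndufb4* lies at chr16:37654369-37654618 (minus strand), with an ERR half-site at -55. *Atp5h* lies at chr11:115419920-115420169 (minus strand), with an ETS motif in reverse at -39. *Atp5l* lies at chr9:44920743-44920992 (minus strand), with an NRF-1 motif at -241 and an ERR half-site at -13, both in reverse. The *Cox7a1* and *Cox7a2* stretches lie at chr7:30183921-30184170 (plus strand) and chr9:79759854-79760103 (minus strand).
Ndufa11: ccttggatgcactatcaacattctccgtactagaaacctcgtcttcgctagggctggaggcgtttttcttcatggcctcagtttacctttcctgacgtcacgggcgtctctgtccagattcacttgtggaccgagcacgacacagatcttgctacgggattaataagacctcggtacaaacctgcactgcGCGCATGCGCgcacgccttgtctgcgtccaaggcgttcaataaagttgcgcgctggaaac
Ndufb4: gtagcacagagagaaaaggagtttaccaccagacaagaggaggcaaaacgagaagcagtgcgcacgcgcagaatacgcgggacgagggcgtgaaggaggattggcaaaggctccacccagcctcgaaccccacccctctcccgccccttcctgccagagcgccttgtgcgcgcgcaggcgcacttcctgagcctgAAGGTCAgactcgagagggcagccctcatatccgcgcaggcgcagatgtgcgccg
Atp5h: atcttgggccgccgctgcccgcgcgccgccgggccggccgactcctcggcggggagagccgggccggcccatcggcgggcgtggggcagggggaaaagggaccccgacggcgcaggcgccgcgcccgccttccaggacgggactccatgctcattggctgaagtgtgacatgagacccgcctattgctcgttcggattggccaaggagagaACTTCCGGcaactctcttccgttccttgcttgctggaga
Atp5l: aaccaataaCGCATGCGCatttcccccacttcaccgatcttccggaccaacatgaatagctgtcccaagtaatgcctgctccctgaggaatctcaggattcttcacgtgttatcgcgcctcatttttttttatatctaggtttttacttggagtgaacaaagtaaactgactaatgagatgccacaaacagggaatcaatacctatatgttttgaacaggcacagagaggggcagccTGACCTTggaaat
Cox7a1: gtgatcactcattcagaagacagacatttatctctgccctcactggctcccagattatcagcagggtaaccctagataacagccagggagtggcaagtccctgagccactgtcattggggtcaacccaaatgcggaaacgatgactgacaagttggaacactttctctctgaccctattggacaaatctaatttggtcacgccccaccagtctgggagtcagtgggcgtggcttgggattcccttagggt
Cox7a2: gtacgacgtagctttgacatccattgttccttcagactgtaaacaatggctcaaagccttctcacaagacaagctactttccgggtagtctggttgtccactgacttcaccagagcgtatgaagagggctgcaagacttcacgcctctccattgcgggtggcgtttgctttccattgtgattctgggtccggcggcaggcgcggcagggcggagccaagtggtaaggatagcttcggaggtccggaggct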

How the data were processed

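RNA was extracted by the authors from flash-frozen liver, and stranded mRNA libraries were sequenced as paired reads. The submitters' processing notes name bcl2fastq, Trim Galore 0.6.4, STAR 2.7.3a, Cufflinks 2.2.1 and the mm9 build; the study's methods give another STAR release for both the mapping and the counting. The deposited values are counts of reads per gene, although the files are named for CPM: they are whole throughout and library totals vary. The annotation and the strand column are not given in the sources used here, so genes that overlap on opposite strands (16 subunit genes) or have near-identical copies (15 of 79 searched, at 95% identity over 50% of the transcript) are uncertain, *Ndufb2* also for an overlap on the same strand.

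The software was DESeq2 1.42.0, limma 3.58.1 and edgeR 4.0.16 in R 4.3.3. Genes that reached 1 CPM by library size in 5 or more livers (11208) were scaled by TMM. They were tested by quasi-likelihood in edgeR, with p-values adjusted by Benjamini-Hochberg over all of them. In simulated counts, this test recovered 4 of 100 genes changed by 0.5 on the log2 scale and 48 of 100 changed by 1. A gene that was not called is therefore not shown to be unchanged. Alternatives were other scalings, filters and tools, the replicate number as a block, and leaving out each liver. The SE is the log2 fold change over the square root of F. A floor of 3 counts, 0.0727 to 0.179 CPM by liver, covers counting error only. No liver pair of a group was a duplicate (chi-square per degree of freedom 25.7 to 450.3 over 20 pairs). Each library is a separate liver by its label. Genes were located, and coding transcript lengths (median per gene) taken, in GENCODE vM1 for NCBIM37, which is mm9; promoters come from RefSeq on GRCm38.p6. Named are *Ndrg3*; per complex the gene with the highest level per kb and the largest called rise and fall; called genes with a log2 fold change beyond 1; the paralog families, *Ndufa4* and the Sdh genes; and up to 2 rises and 2 falls per further list. One tested gene is counted but not reported here by name. Other genes were named after their values were seen. The genes, lists, tests and alternatives were chosen with earlier results of these data known.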

Additional observations from a re-analysis of the deposited data

Results flagged for a closer look

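Within-group outliers were sought with Dixon's test in 56 groups of 5 livers, those of the named subunit genes, *Ndrg3* and the summed complexes, and 4 were found. Chance flags about 1 in 20 groups. *Sdhd* at 601 CPM in Ndrg3 LKO liver 5 was far above the other Ndrg3 LKO livers. The summed complex II transcripts were also high in Ndrg3 LKO liver 5, at 1730.0 CPM. *Cox7a1* at 5.95 CPM and *Cox6a2* at 4.23 CPM in wild-type liver 5, the liver with muscle transcripts, were far above the other wild-type livers.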

How the results depend on the processing

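With library-size scaling, 66 subunit genes were changed and their median log2 fold change was 0.84; with quantile normalization, 53 were changed. A log2 fold change beyond 1 as a further condition left 3 subunit genes, with *Cox6b2* among them, and 2301 of all genes. Leaving out each liver in turn gave 14 to 27 changed subunit genes, the highest number without Ndrg3 LKO replicate 2, a median of 0.23 to 0.40, 4431 to 5962 changed genes and a log2 fold change of *Ndrg3* of -1.24 to -1.12. All 13 subunit genes below 0 with TMM were above 0 with library-size scaling; among the named genes with a call on either scale, the sign changed for *Sdha* (0.16), *Sdhb* (0.35), *Foxred1* (0.053), *Surf1* (0.094) and *Mfn1* (0.15); scaling by totals moved the median of all genes to 0.56. The cause of the other changes was not tested. *Sdha* lost its call without wild-type replicates 2, 3 or 5 or Ndrg3 LKO replicates 1 to 4, *Atp5b* without any wild-type replicate or Ndrg3 LKO replicates 2 or 3, *Sdhd* without wild-type replicates 1, 2 or 4, and *Ndufb4* without wild-type replicates 2 or 4 or Ndrg3 LKO replicates 1 or 5. Median-of-ratios scaling, no filter, a mean CPM of at least 5, DESeq2 and limma gave 15 to 20 changed subunit genes, and *Ndrg3* was called lower in every alternative.

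The replicate numbers do not pair the livers: deviations of same-numbered livers had a mean correlation of -0.22, and no liver correlated best with its own number. With the replicate number as a block, 15 subunit genes and 4412 of all genes were changed, with a median of 0.33 and *Ndrg3* at -1.19; *Atp5b*, *Ndufb10*, *Sdha* and *Sdhd* were then not called and *Cox6a2* was. *Cox6b2* fell under the filter when an Ndrg3 LKO liver was left out or a mean CPM of 5 was asked for. *Cox6a2* did so without wild-type replicate 5 or any of Ndrg3 LKO replicates 1 to 4.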

Other observations

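*Ppargc1a* and the subunit genes had different orders over the Ndrg3 LKO livers. *Ppargc1a* was at 57.9, 139.6, 113, 52.0 and 41.3 CPM in Ndrg3 LKO livers 1 to 5, against 13.2, 9.72, 12.6, 14.0 and 10 CPM in the wild-type livers, and *Esrra* at 117, 121, 132, 96.6 and 79.0 CPM against 48.2, 43.3, 42.7, 46.0 and 60.9 CPM. Both were lowest of their group in Ndrg3 LKO liver 5, which had the highest summed subunit transcripts with TMM. By share of all counts, that liver was instead level with Ndrg3 LKO liver 2 at the bottom of the group for the summed subunits (2.71% each). *Atp5b* (1882, 2375, 2392, 1970.1 and 1797 CPM) had the same order as *Esrra* for livers 3, 2 and 5, and another for livers 1 and 4. It was picked after its values were seen, and 57 of the 75 subunit genes tested were instead highest of their group in liver 5. *Mdh2* of the tricarboxylic acid cycle was at 1602, 1608, 1792, 1145 and 750.4 CPM and was also lowest in Ndrg3 LKO liver 5. The relation was not tested over 5 livers.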
